A study of Homo sapiens with 60 samples.

Results

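A high and a low dose of licorice root extract were compared in HT29 cells, an established human colorectal adenocarcinoma line. The comparison sets the 3 libraries labelled with 350 µg/mL of a 70% ethanol extract of Glycyrrhizae Radix, called Glycyrrhiza here, against the 3 libraries with 14 µg/mL of the same extract. These are 6 of the 60 libraries of the series, picked out by their dose and extract labels. Cells were exposed for 24 h in every group, and both groups carry the extract, so each change is one between 2 exposed groups. The dose rule of the series sets the top dose of an extract at its IC20 where that lies below 500 µg/mL, which makes 350 µg/mL the IC20 by that rule and the low dose 25 times smaller. No vehicle library, labelled DMSO, enters this comparison, and all libraries of the series carry the same batch letter. Beside it, 3 libraries at 70 µg/mL of the same extract give the dose between, and the high and low doses of the other 5 extracts (500 and 20 µg/mL, 3 libraries each) give the comparison with other herbs. Those extracts were the decoctions Palmul-tang and Sibjeondaebo-tang and ethanol extracts of Poria, Atractylodes and Ginseng. An ethanol extract of Angelica (12.8, 64 and 320 µg/mL) had 1 library per dose and enters no test here. Whether the replicates of a group were separate cultures is not said in the labels, so the spread behind every p-value is that of libraries and could be technical in origin.

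As background, cells meet foreign plant compounds with several sensors. The aryl hydrocarbon receptor (AhR) binds flat aromatic molecules and drives CYP1A and CYP1B oxidases. NRF2, held down by KEAP1 until reactive compounds modify KEAP1, drives detoxification enzymes, glutathione synthesis and iron handling. ATF4 is made when kinases of the integrated stress response slow general translation, for example under amino acid shortage or stress of the endoplasmic reticulum, and it drives amino acid import, amino acid synthesis and aminoacyl-tRNA synthetases. Licorice root is known for triterpenoid saponins such as glycyrrhizin, whose aglycone inhibits the cortisol-inactivating enzyme HSD11B2, and for flavonoids. No compound was measured here.

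The 6 libraries held 19.77 to 26.3 M counts, against 19.31 to 29.62 M over the 60. Libraries of the same group correlated at r of 0.9909 to 0.9926 on the log2 scale, and high dose libraries correlated with low dose libraries at 0.9856 to 0.9883. Mitochondrial transcripts took 8.18% ± 0.489 of counts at the high dose and 7.56% ± 0.523 at the low dose (SD, n = 3 each). All 13 colon epithelium markers had counts, and their summed level was 14100 to 14200 CPM (counts per M) at the high dose against 13100 to 14100 CPM at the low dose. Of other cell types' markers, some were above 0 and higher at the high dose. TUBB3 of neurons, at 3.04, 3.85 and 3.9 CPM against 1.86, 1.62 and 2.1 CPM at the low dose, LUM of fibroblasts, at 1.85, 2.05 and 1.26 CPM against 0.874, 0.961 and 0.871 CPM, and CD68 of leukocytes, at 8.51, 9.44 and 9.45 CPM against 5.85, 6.33 and 5.9 CPM, rose by 0.94, 0.93 and 0.60 on the log2 scale (edgeR adjusted p = 2.7e-05, 0.00394 and 0.00197). The summed levels of the 9 fibroblast markers (6 with counts), 3.25 to 4.1 CPM at the high dose against 2.43 to 2.5 CPM at the low dose, and of the 6 neuronal markers (4 with counts), 3.25 to 4.21 CPM against 1.82 to 2.3 CPM, did not overlap between the groups. The neuronal sum was mostly TUBB3, which averaged 3.6 CPM at the high dose and 1.86 CPM at the low dose. Some markers had lower means at the high dose, though none was called lower. Among them were RBFOX3 of neurons (0.032 against 0.106 CPM), FAP of fibroblasts (0.13 against 0.166 CPM) and PECAM1 of endothelium (1.46 against 1.67 CPM). The endothelium sum overlapped, at 1.8 to 3.08 CPM against 2.58 to 2.99 CPM. The part of other cell types in the results was not tested. Other defining markers, COL1A2, DCN and PDGFRA of fibroblasts, CD3E and MS4A1 of leukocytes, CDH5 and KDR of endothelium and SNAP25 and STMN2 of neurons were at 0 in all 6 libraries. The leukocyte sum, 1470 to 1570 CPM at the high dose against 1520 to 1640 CPM at the low dose, was nearly all LYZ, which averaged 1511 CPM at the high dose and 1551 CPM at the low dose. In bulk RNA, fewer cells that express a gene and less RNA of it per cell cannot be told apart.

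Of 16404 genes tested, 4143 changed between the high and the low dose, 25.3% of all tested, at a Benjamini-Hochberg adjusted p below 0.05 in edgeR's quasi-likelihood test. At the high dose 2288 genes rose (13.9% of all tested) and 1855 fell (11.3%), and the median log2 fold change over all tested genes was -0.01. Most changes were small: the median rise was 0.29 on the log2 scale, the median fall was -0.28, and 172 genes rose and 169 fell by more than 1. The high and low dose libraries did not overlap for 6184 genes (37.7% of all tested), 3957 of them among the called genes. The 36 gene lists described next cover stress, metabolism, signalling and intestinal identity. Each list is described by its counts and its median beside the shares and the median of all tested genes, with no test of the list itself.

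**Figure D1:**
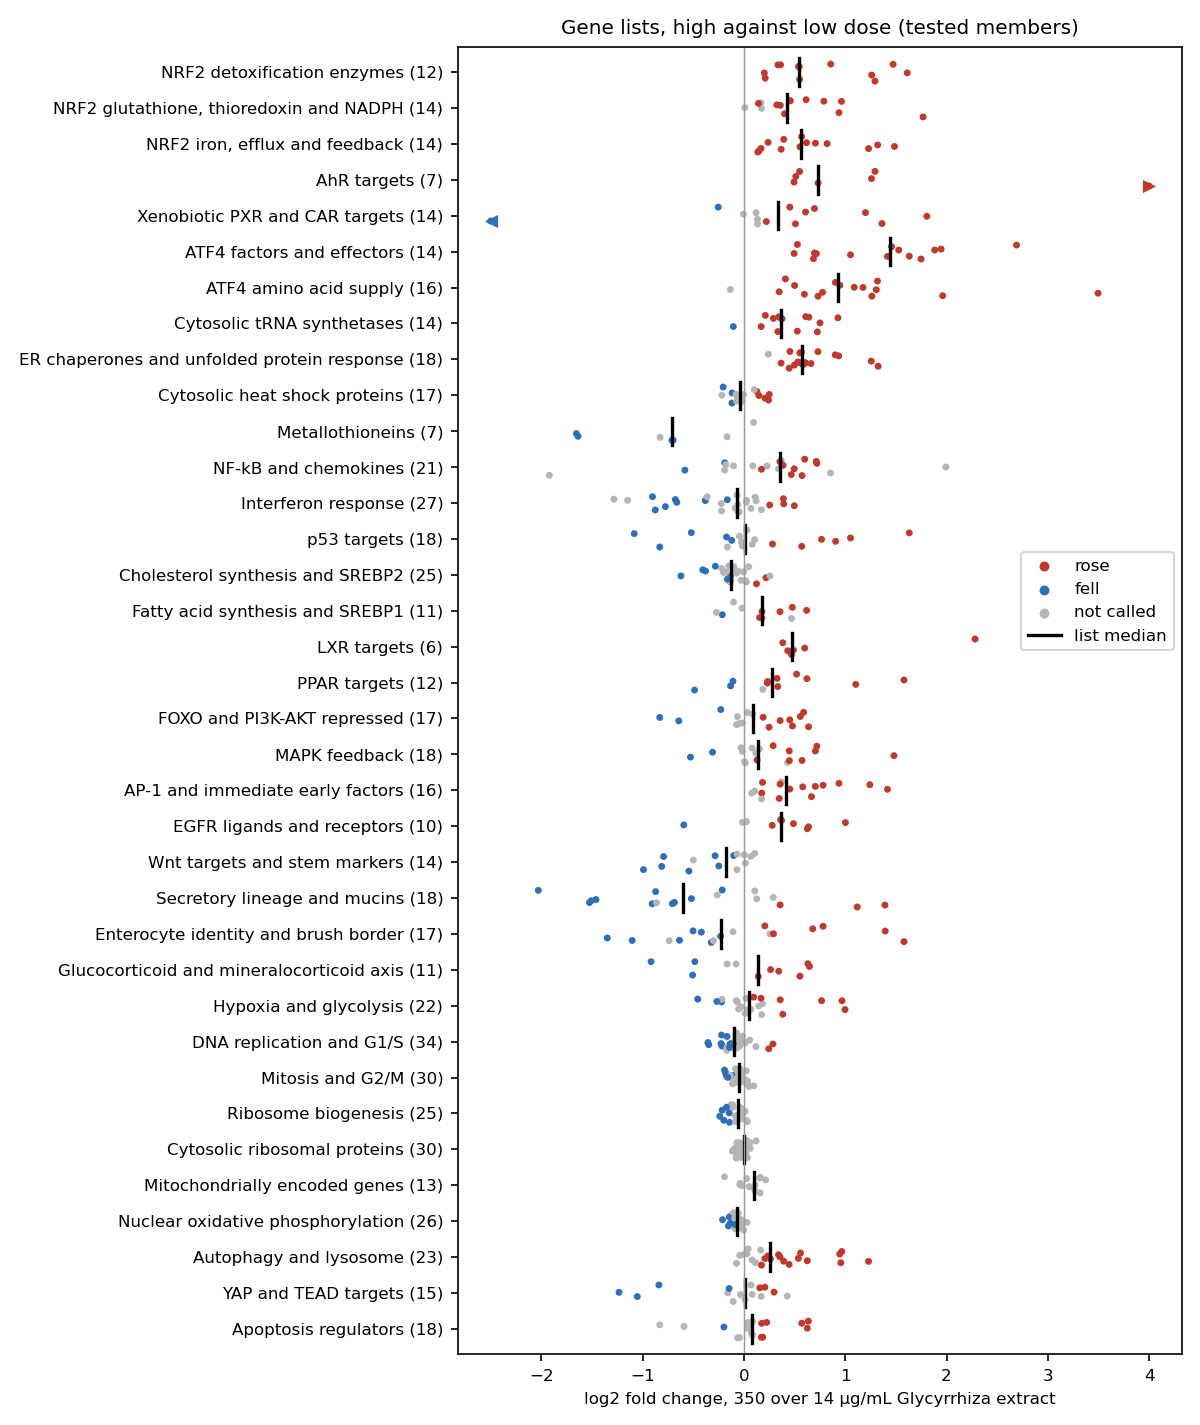
Log2 fold change of the high over the low Glycyrrhiza dose (x axis) for the tested members of 36 gene lists (y axis, tested members in brackets), 1 point per gene, red where it rose, blue where it fell and grey where it was not called, with a black bar at each list's median and an arrowhead for CYP1A1, which lies beyond the axis at 5.25. The lists with the highest medians are the ATF4 factors (1.44) and ATF4 amino acid supply (0.93), and metallothioneins (-0.71) and secretory lineage genes (-0.60) have the lowest.

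Genes of the ATF4 programme rose at the high dose. All 14 tested factors and effectors of the ATF4 list rose, with a median of 1.44 on the log2 scale. Of 16 tested genes of amino acid supply 15 rose (median 0.93), and of 14 tested genes of cytosolic tRNA charging 13 rose and 1 fell (median 0.37). Promoters of CHAC1, ASNS and ATF3, from this programme, and of GCLM, from the NRF2 programme, are shown because each holds the core of a response element near its start. The sequences are the 250 bases before the annotated start in RefSeq, build GRCh38.p14, written along the gene's own strand, and capitals mark the amino acid response element core TGATGNAA, bound by ATF4 with C/EBP proteins, or the antioxidant response element core TGACNNNGC, bound by NRF2 with small MAF proteins.
CHAC1 (chr15:40953221-40953470, plus strand): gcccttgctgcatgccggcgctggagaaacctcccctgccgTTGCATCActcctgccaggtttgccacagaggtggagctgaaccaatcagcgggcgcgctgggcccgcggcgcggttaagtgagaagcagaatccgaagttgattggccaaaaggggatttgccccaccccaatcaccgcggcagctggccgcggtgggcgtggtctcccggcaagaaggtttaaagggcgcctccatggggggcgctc
ASNS (chr7:97872409-97872658, minus strand): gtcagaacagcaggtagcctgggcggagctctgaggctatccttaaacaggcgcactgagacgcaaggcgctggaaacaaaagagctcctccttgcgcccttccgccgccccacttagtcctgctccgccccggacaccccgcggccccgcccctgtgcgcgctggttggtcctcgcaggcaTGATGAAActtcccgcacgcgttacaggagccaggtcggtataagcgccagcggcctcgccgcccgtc
ATF3 (chr1:212565157-212565406, plus strand): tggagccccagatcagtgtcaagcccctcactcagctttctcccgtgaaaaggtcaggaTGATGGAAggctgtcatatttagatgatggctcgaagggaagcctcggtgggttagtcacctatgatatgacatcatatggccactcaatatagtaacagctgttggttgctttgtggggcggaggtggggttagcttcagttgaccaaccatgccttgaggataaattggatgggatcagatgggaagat
GCLM (chr1:93909431-93909680, minus strand): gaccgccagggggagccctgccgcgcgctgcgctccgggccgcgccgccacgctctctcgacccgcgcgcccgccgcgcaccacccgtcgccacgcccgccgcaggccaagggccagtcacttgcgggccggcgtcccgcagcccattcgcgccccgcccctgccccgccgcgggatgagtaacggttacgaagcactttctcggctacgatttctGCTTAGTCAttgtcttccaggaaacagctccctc

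The core lies on the gene's own strand in ASNS and ATF3, and on the opposite strand in CHAC1 and GCLM. Its first base lies 209 bases before the start in CHAC1, 68 in ASNS, 191 in ATF3 and 34 in GCLM. Windows of 300 bases, 250 before and 50 after the start, were at hand for 11170 tested genes and were searched on both strands. The amino acid response element core occurred in 3.35% of 1790 genes that rose, 1.47% of 1424 genes that fell and 1.73% of all 11170. It was found in 6 of 11 windows of tRNA charging genes (AARS1, CARS1, IARS1, MARS1, NARS1 and TARS1), in 3 of 13 of amino acid supply (ASNS, SLC3A2 and SLC7A1) and in 2 of 13 of the ATF4 factors (ATF3 and CHAC1). The antioxidant response element core occurred in 17.1% of genes that rose, 12.2% of genes that fell and 15.1% of all, and in 5 of 10 glutathione, thioredoxin and NADPH genes, 2 of 10 detoxification enzymes and 0 of 10 genes of iron handling, efflux and feedback. It was not particular to the NRF2 lists. Other lists held it in 3 of 3 metallothionein, 6 of 16 autophagy and lysosome and 4 of 13 amino acid supply windows, and in 0 of 10 windows of PPAR targets. The xenobiotic response element core TNGCGTG, which the AhR binds with ARNT, occurred in 7.04%, 6.11% and 7.29%, the sterol regulatory element TCACNCCAC in 1.79%, 0.843% and 1.11%, and the heat shock element (GAA, 2 bases of any kind, TTC, 2 of any kind and GAA) in 0.112%, 0.14% and 0.331% of genes that rose, fell and were tested. A match of letters is a description and not a bound site. The antioxidant and amino acid cores both begin with TGA and differ in the next base, so the same letters on one strand are not both, while matches that overlap at other registers or on the other strand were each counted.

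CHAC1, a glutathione-degrading enzyme and ATF4 target (ENSG00000128965, GRCh38 chromosome 15, 40952962 to 40956519), was at 18.5, 21.3 and 21.1 CPM in the high dose libraries, against 2.93, 3.34 and 3.17 CPM in the low dose libraries. All 3 high dose values lie far above all 3 low dose values. CHAC1 rose by 2.69 ± 0.12 on the log2 scale (SE of the fit; adjusted p = 1.22e-22). DDIT3, which encodes the stress factor CHOP, was at 20.4, 18.4 and 21.3 CPM at the high dose against 5.97, 5.77 and 6.14 CPM at the low dose, a rise of 1.75 ± 0.10 (adjusted p = 2.24e-18). The groups of DDIT3 are also wide apart. DDIT4, an inhibitor of the growth kinase complex mTORC1, was at 57.4, 64.1 and 60.6 CPM against 17.1, 16.4 and 15.7 CPM at the low dose and rose by 1.88 ± 0.08 (adjusted p = 1.8e-24). TRIB3, a pseudokinase induced by ATF4 with CHOP, was at 106, 105 and 105 CPM against 40.3, 37.6 and 37.1 CPM and rose by 1.46 ± 0.06 (adjusted p = 1.13e-24). Neither gene's groups overlap, and the 3 TRIB3 libraries of each group are nearly equal. GDF15, a stress-induced secreted factor of the TGF-beta family, was at 140.5, 149 and 153 CPM against 48.5, 46.7 and 47.3 CPM, a rise of 1.63 ± 0.07 (adjusted p = 1.22e-22). ATF3, a transcription factor of the same response, was at 7.52, 6.62 and 8.8 CPM against 2.77, 2.63 and 3.17 CPM and rose by 1.42 ± 0.12. The transcript of ATF4 itself rose less, by 0.70 ± 0.05, and it is controlled mainly in translation, which RNA levels do not show. The rises of the other members ran from 0.50 (CEBPG, a partner of ATF4) to 1.95 (NUPR1, a stress-induced chromatin protein, at 1.68 CPM at the high dose and 0.43 CPM at the low dose). SESN2, a leucine sensor, and PPP1R15A, the phosphatase subunit that restores translation, rose by 1.05 ± 0.07 and 0.72 ± 0.05.

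Transcripts of amino acid import and synthesis genes also rose at the high dose. SLC6A9, the glycine transporter GLYT1 (ENSG00000196517, GRCh38 chromosome 1, 43991500 to 44031467), was at 8.55, 9.39 and 8.89 CPM at the high dose, against 0.836, 0.911 and 0.634 CPM at the low dose. The high dose values are all about an order of magnitude above the low dose values. SLC6A9 rose by 3.50 ± 0.22 on the log2 scale (adjusted p = 1.06e-17), the second largest rise among the named genes. ASNS, asparagine synthetase (ENSG00000070669, GRCh38 chromosome 7, 97852118 to 97872542), was at 215, 204 and 203 CPM at the high dose against 51.8, 53 and 54.9 CPM at the low dose, a rise of 1.96 ± 0.05 (adjusted p = 3.1e-33). In ASNS the spread within each group is a few percent of its mean and the groups are far apart. The serine synthesis enzymes PHGDH, PSAT1 and PSPH rose by 1.09, 1.18 and 0.35. PCK2, the mitochondrial phosphoenolpyruvate carboxykinase, rose by 1.31 ± 0.06, and CTH, which makes cysteine from cystathionine, rose by 1.26 ± 0.12. Of the transporters, SLC1A4 (serine and alanine) rose by 1.32, SLC38A2 (neutral amino acids) by 0.95 and both chains of the leucine transporter, SLC7A5 and SLC3A2, by 0.78 and 0.90. The mitochondrial folate enzymes SHMT2 and MTHFD2 rose by 0.60 and 0.73. The exception was ALDH1L2, another enzyme of that pathway, at 0.506 CPM at the high dose and 0.542 CPM at the low dose, with a log2 difference of -0.13 ± 0.31 that did not pass the test.

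Among the tRNA charging genes, which attach amino acids to their tRNAs, WARS1 (tryptophan) rose most, by 0.93 ± 0.05. WARS1 was at 188, 201 and 198 CPM at the high dose against 107, 102 and 100.0 CPM at the low dose. SARS1 (serine), GARS1 (glycine) and AARS1 (alanine) rose by 0.75, 0.72 and 0.64. XPOT, the exporter of tRNA from the nucleus, rose by 0.53 ± 0.04. VARS1 (valine) was the member that fell, by 0.10 ± 0.04, with 225, 245 and 234 CPM at the high dose and 256, 253 and 247 CPM at the low dose, and its call was lost without high dose library 1 or 3 or low dose library 1 or 2 (edgeR adjusted p = 0.0722 to 0.182).

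Chaperones of the endoplasmic reticulum rose as well, while fewer of the cytosolic heat shock genes were called. Of 18 tested genes of the endoplasmic reticulum list 17 rose and none fell, with a median of 0.58. HSPA5, the chaperone BiP that senses unfolded protein there, was at 882, 797 and 826 CPM at the high dose against 449, 428 and 434 CPM at the low dose. Its groups are far apart, and HSPA5 rose by 0.94 ± 0.04 (adjusted p = 2.65e-23). DNAJB9, a co-chaperone of BiP, rose by 1.32 ± 0.07, HERPUD1, which takes part in degradation of misfolded proteins, by 1.26 ± 0.05, and HYOU1, a nucleotide exchange factor of BiP, by 0.90 ± 0.03. XBP1, a transcription factor of this response, rose by 0.50 ± 0.04, and its splicing was not measured here. SDF2L1 was the member not called, at 0.24 ± 0.10, though it passed without high dose library 3 (edgeR adjusted p = 0.0316). Of 17 tested cytosolic heat shock genes 5 rose and 3 fell, with a median of -0.04. The inducible HSPA1A and HSPA1B, near-identical copies whose shared reads make each value uncertain, rose by 0.15 and 0.24, and the constitutive HSPA8 and HSP90AA1 each fell by 0.12. These small calls depend on single libraries: without high dose library 2 only 3 of the 17 rose and 1 fell, and without high dose library 1 or low dose library 2 or 3 only 2 rose. Of 7 tested metallothionein genes, which bind zinc and copper and resemble each other in sequence, 4 fell and none rose (median -0.71), with 2 falls without high dose library 1 or low dose library 1 and 1 rise without low dose library 3. MT1E was at 52.3, 53.8 and 53.8 CPM at the high dose against 98.3, 88 and 75.4 CPM at the low dose and fell by 0.71 ± 0.17 (adjusted p = 0.00137).

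Targets of NRF2 rose at the high dose. Of 12 tested detoxification enzymes 12 rose (median 0.55), of 14 tested glutathione, thioredoxin and NADPH genes 11 rose (median 0.43), and of 14 tested genes of iron handling, efflux and feedback 14 rose (median 0.56), and no member of the 3 lists fell. AKR1B10, an aldo-keto reductase that reduces reactive aldehydes, was at 243, 231 and 245 CPM at the high dose against 108, 96.9 and 94.8 CPM at the low dose. The groups do not overlap, and AKR1B10 rose by 1.26 ± 0.06 (adjusted p = 8.59e-23). AKR1C1, AKR1C2 and AKR1C3, reductases of steroids and carbonyls, rose by 1.61, 1.47 and 0.86, and their near-identical sequences make the split of reads among them uncertain. ALDH3A1, an aldehyde dehydrogenase, was at 79.6, 74.8 and 78.3 CPM against 33.8, 33.2 and 28 CPM at the low dose and rose by 1.29 ± 0.05. NQO1, a quinone reductase and classic NRF2 target, was at 763, 742 and 741 CPM against 529, 494 and 512 CPM at the low dose, a rise of 0.55 ± 0.04 (adjusted p = 3.89e-17). NQO1 was already abundant at the low dose, and its groups do not overlap.

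In the glutathione branch, SLC7A11, the cystine importer xCT (ENSG00000151012, GRCh38 chromosome 4, 138164097 to 138242349), was at 440.0, 435 and 414 CPM at the high dose against 123, 121 and 134 CPM at the low dose. SLC7A11 rose by 1.77 ± 0.07 (adjusted p = 2.66e-25), with the groups far apart, and ATF4 also drives this gene. Both subunits of the enzyme that starts glutathione synthesis rose, the catalytic GCLC by 0.96 ± 0.07 and the regulatory GCLM by 0.94 ± 0.07. GCLM, whose promoter is shown above, was at 136, 116 and 123 CPM against 66.9, 62.8 and 66 CPM at the low dose. TXNRD1, thioredoxin reductase, rose by 0.79 ± 0.06, and PGD, an NADPH-forming enzyme of the pentose phosphate pathway, rose by 0.45. GPX2, TXN and PRDX1 were not called, at 0.17, 0.17 and 0.01, though GPX2 passed without high dose library 1 (edgeR adjusted p = 0.0191). In iron handling, HMOX1, heme oxygenase, was at 26.9, 28.3 and 28.4 CPM at the high dose against 11.8, 11.2 and 10.5 CPM at the low dose and rose by 1.32 ± 0.09 (adjusted p = 4.49e-17). The ferritin chains FTL and FTH1, which have many processed pseudogenes, rose by 0.62 and 0.57. SQSTM1, the autophagy receptor p62 that binds KEAP1, was at 958, 938 and 925 CPM against 433, 386 and 384 CPM and rose by 1.23 ± 0.06. The transcripts of NRF2 itself (NFE2L2) and of KEAP1 rose by only 0.15 and 0.14, and the call of KEAP1 was lost without high dose library 1 or 3 or low dose library 2 or 3 (edgeR adjusted p = 0.0626 to 0.252).

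The largest single rise was that of CYP1A1, the oxidase that is the classic AhR target (ENSG00000140465, GRCh38 chromosome 15, 74719542 to 74725610). CYP1A1 was at 23.7, 24.8 and 30.2 CPM in the high dose libraries, against 0.798, 0.557 and 0.673 CPM in the low dose libraries. The groups lie well over an order of magnitude apart, and CYP1A1 rose by 5.25 ± 0.21 on the log2 scale (adjusted p = 8.85e-25), a fitted fold of 38 over the low dose. CYP1B1, the related oxidase, was at 132, 119.5 and 129 CPM against 52.7, 53 and 53 CPM at the low dose and rose by 1.26 ± 0.05 (adjusted p = 2.83e-25). All 7 tested AhR targets rose, with a median of 0.73, and 2 of them, ALDH3A1 and NQO1, also stand in the NRF2 list. TIPARP, a poly-ADP-ribosyltransferase that damps the AhR, rose by 0.73 ± 0.04, and AHRR, the receptor's repressor, by 0.49 ± 0.11. UGT1A6 rose by 0.51 ± 0.06, and the genes of the UGT1A locus share their last exons, so their split is uncertain.

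Of 14 tested genes of drug metabolism and transport, among them targets of the xenobiotic receptors PXR and CAR, 8 rose and 2 fell (median 0.34; 1 fell in the fit of the 6 libraries alone). CYP2B6, a hepatic drug oxidase and CAR target, was at 6.46, 7.13 and 7.59 CPM at the high dose against 2.28, 2.83 and 3.13 CPM at the low dose, a rise of 1.36 ± 0.13 (adjusted p = 3.99e-12). CYP3A5, a drug and steroid oxidase, was at 172, 167 and 169.7 CPM against 106, 105 and 103 CPM and rose by 0.70 ± 0.04 (adjusted p = 4.3e-18). Both genes' groups are apart. CYP4F3 and CYP4F12, hydroxylases of leukotrienes and fatty acids, rose by 1.81 and 1.20, and the efflux pump ABCG2 by 0.51. UGT2B15, a glucuronosyltransferase of steroids, held 1 count in each high dose library against 13, 9 and 8 counts in the low dose libraries and fell (edgeR adjusted p = 0.0024). Its counts per M at the high dose were 0.102 of those at the low dose (exact 95% interval 0.020 to 0.330, 3 against 30 counts in all, for counting error only). The pump ABCC4 fell by 0.25 ± 0.06, and ABCB1, at 0.502 CPM at the high and 0.458 CPM at the low dose, was not called (0.13 ± 0.36).

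The dose between the 2 extremes lay close to the low dose for most of these genes. CYP1A1 was at 0.798, 0.557 and 0.673 CPM at 14 µg/mL, 1.35, 0.554 and 0.857 CPM at 70 µg/mL and 23.7, 24.8 and 30.2 CPM at 350 µg/mL. CHAC1 averaged 3.14 ± 0.208 CPM at 14 µg/mL, 3.38 ± 0.0722 CPM at 70 µg/mL and 20.3 ± 1.55 CPM at 350 µg/mL (SD, n = 3 each). ASNS averaged 53.2 ± 1.54, 56.3 ± 3.05 and 207 ± 6.85 CPM at these 3 doses. At 70 µg/mL these genes were thus within or near the range of the low dose. Of the 172 genes that rose by more than 1 on the log2 scale 157 had a mean at 70 µg/mL nearer to the low than to the high dose mean, as did 150 of the 169 that fell by more than 1. The median share of the log2 change already reached at 70 µg/mL was 0.09 for these rises and 0.17 for these falls. Between 70 and 14 µg/mL, 0 of 16404 genes (0%) passed edgeR's test, with 1073 (6.54%) at an unadjusted p below 0.05 and a smallest adjusted p of 0.596, DESeq2 called 2 (1 higher, 1 lower), and edgeR with no filter on low counts called 129 (66 higher, 63 lower). Both comparisons share the 3 low dose libraries, so their values are given side by side with no test of their relation. ABCG1 averaged 3.9 ± 0.642 CPM at 14 µg/mL, 5.1 ± 0.442 CPM at 70 µg/mL and 18.8 ± 1.26 CPM at 350 µg/mL. REG4, which fell, averaged 28.6 ± 1.17, 22.9 ± 0.718 and 10.4 ± 1.54 CPM at the 3 doses.

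**Figure D2:**
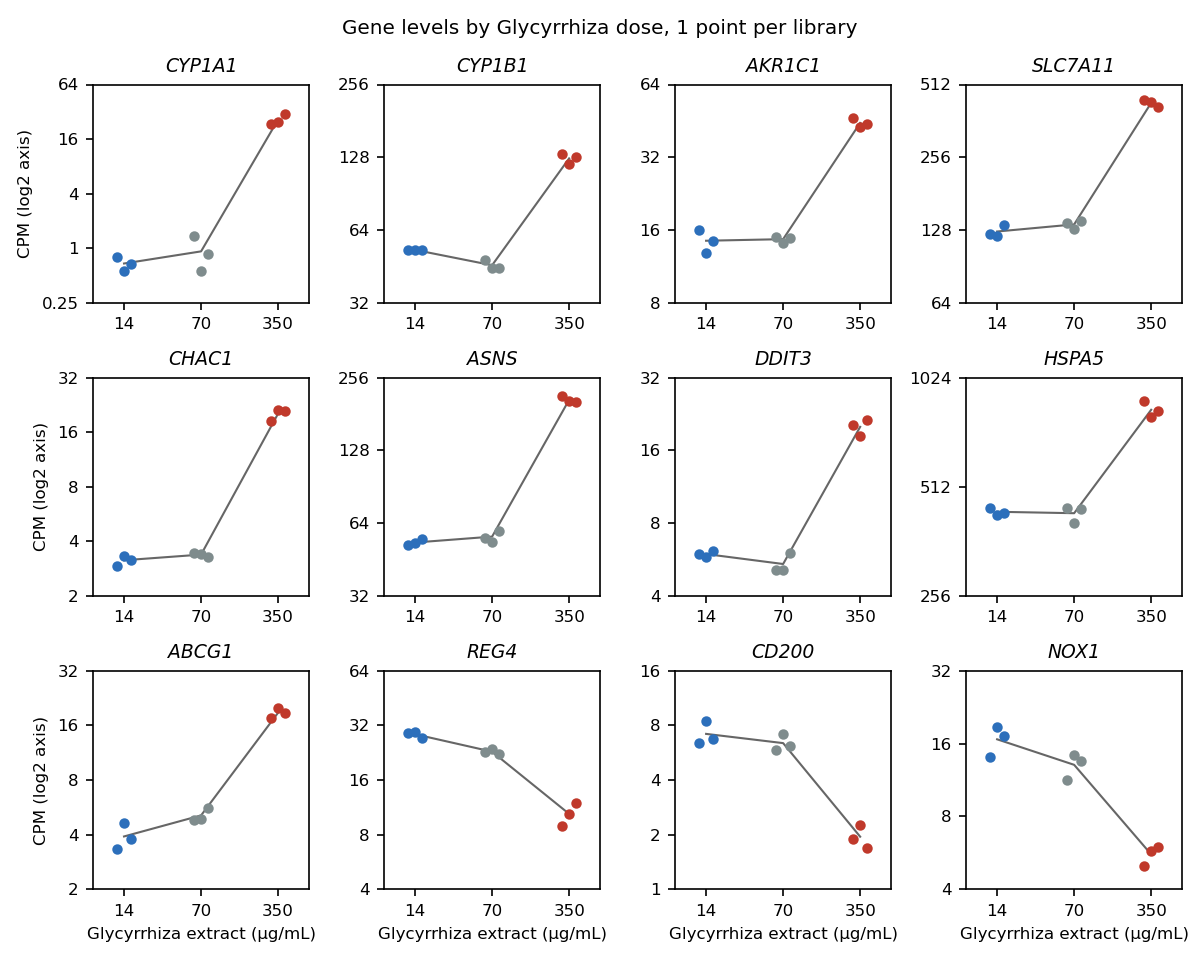
CPM (log2 axis) of 12 genes at 14, 70 and 350 µg/mL of Glycyrrhiza extract (x axis), 1 point per library and a line through the means of 3 libraries. For CYP1A1 the 70 µg/mL libraries sit with the 14 µg/mL libraries near 0.6 to 1.4 CPM, and the 350 µg/mL libraries reach 23.7 to 30.2 CPM, while REG4, CD200 and NOX1 are lowest at 350 µg/mL.

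Lipid genes moved in both directions, as did all tested genes, of which 13.9% rose and 11.3% fell. All 6 tested targets of LXR, the oxysterol receptor that drives cholesterol export, rose (median 0.48). ABCG1, a cholesterol efflux transporter (ENSG00000160179, GRCh38 chromosome 21, 42199689 to 42297244), was at 17.6, 20.1 and 18.8 CPM at the high dose against 3.34, 4.6 and 3.76 CPM at the low dose. Its groups are far apart and it rose by 2.28 ± 0.12 (adjusted p = 1.32e-20). ABCA1, the partner transporter, rose by 0.60 ± 0.13, MYLIP, which degrades the LDL receptor, by 0.43 ± 0.08, and LPCAT3, which remodels phospholipids, by 0.47 ± 0.07. Of 25 tested genes of cholesterol synthesis 2 rose and 6 fell (median -0.13), with 3 falls without low dose library 1, 11 in the fit of the 6 libraries alone, and 1 rise without high dose library 2 or low dose library 3. HMGCS1, an early enzyme of the pathway, fell by 0.41 ± 0.10. Of 11 tested genes of fatty acid synthesis 6 rose and 1 fell (median 0.18). SCD, which desaturates stearate, was at 2774, 2894 and 2714 CPM at the high dose against 1861, 1825 and 1774 CPM at the low dose and rose by 0.62 ± 0.05, and its regulator SREBF1 rose by 0.48 ± 0.04. ACLY, which makes cytosolic acetyl-CoA, was the one that fell, by 0.21 ± 0.03. Of 12 tested PPAR targets 8 rose and 3 fell (median 0.28; 1 fell without high dose library 1 or 2 or low dose library 2), with rises of FABP1, a fatty acid binding protein, by 1.58 ± 0.21 and of PDK4, which shuts pyruvate out of the citric acid cycle, by 1.10 ± 0.10.

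Immediate early and growth factor genes rose moderately. Of 16 tested AP-1 and immediate early factors 12 rose and none fell (median 0.41). FOSB was at 9.54, 9.54 and 10.8 CPM at the high dose against 4.33, 4.5 and 3.84 CPM at the low dose and rose by 1.24 ± 0.13 (adjusted p = 9.2e-11). MAFF, a small MAF protein, rose by 0.94 ± 0.07, and KLF4, a factor of colon cell differentiation, by 0.78 ± 0.09. MYC did not pass the test (0.11 ± 0.04), but did without high or low dose library 1 (edgeR adjusted p = 0.0321 and 0.0383). Of 18 tested genes of MAPK feedback 8 rose and 2 fell (median 0.14). DUSP5, a phosphatase of nuclear ERK, was at 12.5, 12.1 and 12.8 CPM against 3.99, 4.05 and 5.31 CPM at the low dose and rose by 1.48 ± 0.12, and the feedback inhibitors SPRY1 and SPRY2 fell by 0.53 and 0.31. Of 10 tested EGFR ligands and receptors 7 rose and 1 fell (median 0.37). The ligands HBEGF, EREG, AREG, TGFA and BTC rose by 1.00, 0.63, 0.37, 0.36 and 0.49, and LRIG1, which restrains the receptor, fell by 0.59 ± 0.06.

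Inflammatory and survival genes moved in both directions, beside shares of 13.9% that rose and 11.3% that fell over all tested genes. Of 21 tested NF-kB targets and chemokines 9 rose and 2 fell (median 0.35; 1 fell without high dose library 1 or 2), with rises of RELB and NFKB2, subunits of the noncanonical branch, by 0.72 and 0.71, and a fall of PI3, the protease inhibitor elafin, by 0.58 ± 0.19, lost without high dose library 1 or 2 (edgeR adjusted p = 0.106 and 0.0596). CXCL8 was at 7.81, 6.87 and 9.15 CPM at the high dose against 7.15, 6.07 and 7.09 CPM at the low dose, and its difference of 0.23 ± 0.09 did not pass the test (adjusted p = 0.0614), but did without high dose library 2 (adjusted p = 0.0129). Of 27 tested interferon response genes 4 rose and 7 fell (median -0.07), with 4 falls without high dose library 1. IFIT1 and IFI44 fell by 0.90 and 0.88, and OAS1 and IRF7 rose by 0.39 and 0.39. Of 18 tested p53 targets 6 rose and 5 fell (median 0.01), with 3 falls without high dose library 3 or low dose library 1 or 3, in DESeq2 and with RLE factors, and 2 of the 6 (GDF15 and SESN2) stand in the ATF4 list too. CDKN1A, the cell cycle inhibitor p21, was at 29.1, 29.4 and 28.7 CPM against 15.5, 14.3 and 16.5 CPM at the low dose and rose by 0.91 ± 0.08, BTG2 fell by 1.08 ± 0.07, SESN1 fell by 0.83 ± 0.06, and MDM2 was not called (0.08 ± 0.06). HT29 cells are known to carry mutant p53. Of 18 tested apoptosis regulators 7 rose and 1 fell (median 0.08; none fell without high dose library 2 or low dose library 1), with rises of the pro-death members PMAIP1, BMF, BBC3 and BAK1 by 0.64, 0.63, 0.57 and 0.17. The survival genes MCL1 and XIAP rose too, by 0.19 and 0.22. The pro-death BID fell, by 0.20. The call of XIAP was lost without any 1 high dose library or low dose library 1 or 2 (edgeR adjusted p = 0.0722 to 0.251), and that of BID without high dose library 2 or low dose library 1 (0.0751 and 0.169). Of 23 tested autophagy and lysosome genes 15 rose and none fell (median 0.26), led beside SQSTM1 by GABARAPL1 at 0.97 ± 0.10 and WIPI1 at 0.96 ± 0.10, both of autophagosome formation, and CTSL, a lysosomal protease, at 0.95 ± 0.11. Of 17 tested FOXO-linked genes 8 rose and 3 fell (median 0.09), with rises of TRIB1 by 0.64 and IRS2, an insulin receptor substrate, by 0.59. Of 22 tested hypoxia and glycolysis genes 7 rose and 3 fell (median 0.05). VEGFA, the vascular growth factor that ATF4 also drives, was at 136, 133 and 133 CPM at the high dose against 70.1, 65.9 and 65.8 CPM at the low dose and rose by 1.00 ± 0.04 (adjusted p = 1.83e-25), while CA9, the hypoxia-induced carbonic anhydrase, fell by 0.46 ± 0.06. Of 15 tested YAP and TEAD targets 3 rose and 4 fell (median 0.01; 1 rose without high dose library 1), among them a fall of CCN2 by 0.84 ± 0.16.

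More genes of the intestinal secretory lineage and of Wnt signalling fell than rose. Of 18 tested secretory lineage and mucin genes 10 fell and 3 rose, with a median of -0.60. ATOH1, the factor that commits cells to the secretory lineage, was at 1.64, 1.54 and 1.6 CPM at the high dose against 4.49, 5.01 and 4.4 CPM at the low dose. The groups are apart, and ATOH1 fell by 1.53 ± 0.17 (adjusted p = 1.02e-09). REG4, a lectin of enteroendocrine and goblet cells (ENSG00000134193, GRCh38 chromosome 1, 119794018 to 119811660), was at 8.88, 10.4 and 12 CPM against 29, 29.6 and 27.3 CPM at the low dose and fell by 1.46 ± 0.08 (adjusted p = 2.05e-19). DLL4, a Notch ligand, was at 1.81, 2.46 and 1.6 CPM against 5.28, 5.97 and 5.35 CPM and fell by 1.51 ± 0.17. Both genes are lower in every high dose library. MUC13, a membrane mucin, was at 83.3, 72.2 and 79.3 CPM against 147, 145 and 139 CPM at the low dose and fell by 0.87 ± 0.06, and TFF3, the trefoil peptide of goblet cells, fell by 0.69 ± 0.13. In the other direction, the membrane mucin MUC17 was at 20.2, 19.9 and 19.2 CPM against 8.36, 10.3 and 8.83 CPM and rose by 1.12 ± 0.12, and the gastric-type MUC5AC and TFF2 rose by 0.36 and 1.39, the call of MUC5AC being lost without high dose library 1 or low dose library 1 or 3 (edgeR adjusted p = 0.0703 to 0.0874). MUC2, the main goblet cell mucin, was not called (-0.26 ± 0.13).

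Of 14 tested Wnt targets and stem markers 7 fell and none rose (median -0.18), with 1 rise in DESeq2 and without high or low dose library 1. EPHB3, a receptor of crypt base cells, was at 13.1, 12.5 and 14.2 CPM at the high dose against 25.2, 27.3 and 26.9 CPM at the low dose and fell by 0.99 ± 0.08 (adjusted p = 1.23e-13). ASCL2, a stem cell factor, fell by 0.79 ± 0.14, SP5, a direct Wnt target, by 0.54 ± 0.08, and LGR5, the stem cell receptor, by 0.29 ± 0.06. AXIN2, a feedback inhibitor of the pathway, fell by 0.10 ± 0.04, a call lost in DESeq2 (adjusted p = 0.06) and without high dose library 2 or 3 or low dose library 1 or 2 (edgeR adjusted p = 0.054 to 0.145). RNF43 and SOX9 were not called (-0.07 and 0.02). Of 17 tested enterocyte genes 6 rose and 7 fell (median -0.23). KRT20, a keratin of differentiated colon cells and an epithelial marker, was at 508, 498 and 512 CPM against 311, 285 and 287 CPM at the low dose and rose by 0.78 ± 0.06 (adjusted p = 8.47e-14). VIL1, the brush border protein villin and also an epithelial marker, was at 117, 124 and 121 CPM against 178, 190.1 and 193 CPM and fell by 0.64 ± 0.04 (adjusted p = 3.88e-18). These epithelial markers moved in opposite directions, and neither pair of groups overlaps. HNF4A, a factor of enterocyte identity, fell by 0.42 ± 0.07, and CDHR5, a brush border cadherin, rose by 0.68 ± 0.07.

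**Figure D3:**
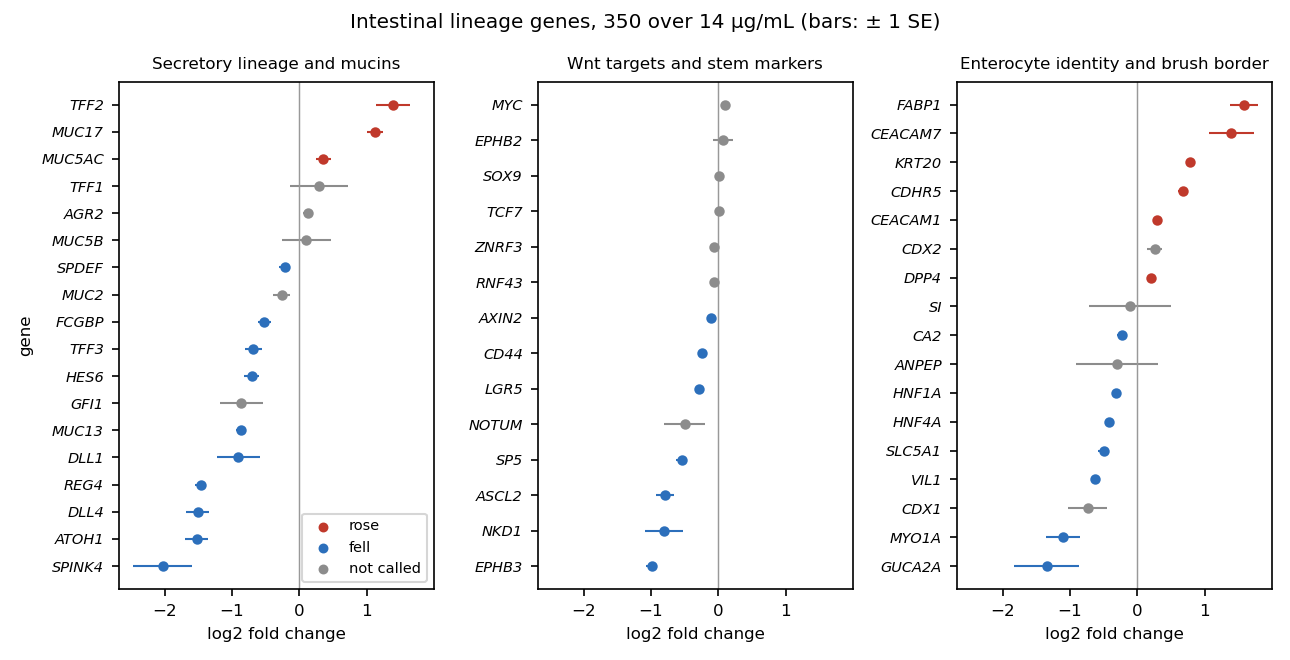
Log2 fold change of the high over the low Glycyrrhiza dose (x axis, bars ± 1 SE of the fit) for tested genes of 3 intestinal lists, 1 row per gene, red where it rose, blue where it fell and grey where it was not called. In the secretory list 10 of 18 are blue and 3 red, in the Wnt and stem list 7 of 14 are blue and none red, and in the enterocyte list 7 of 17 are blue and 6 red.

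Licorice is known for its action on corticosteroid metabolism, so the genes of that axis are given too. Of 11 tested genes of the glucocorticoid and mineralocorticoid axis 6 rose and 3 fell (median 0.14). HSD11B2, which inactivates cortisol, was at 5.72, 5.13 and 4.9 CPM at the high dose against 7.11, 8.3 and 7.13 CPM at the low dose and fell by 0.51 ± 0.10 (adjusted p = 0.000187). NR3C2, the mineralocorticoid receptor, was at 5.14, 4.57 and 4.12 CPM against 7.11, 6.53 and 5.74 CPM and fell by 0.48 ± 0.11. NR3C1, the glucocorticoid receptor, had 0 counts in all 6 libraries. TSC22D3, known as GILZ, rose by 0.55 ± 0.06, KLF9 by 0.65 ± 0.13 and SCNN1A, a subunit of the epithelial sodium channel, by 0.34 ± 0.04, while FKBP5 was not called (-0.08 ± 0.05).

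Most called changes in proliferation and ribosome genes were small falls. For comparison, 11.3% of all tested genes fell and 13.9% rose. Of 34 tested DNA replication genes 12 fell and 2 rose (median -0.10). The helicase subunits MCM2, MCM4, MCM5, MCM6 and MCM7 fell by 0.13 (MCM7) to 0.22 (MCM6), the call of MCM7 being lost without low dose library 1 (edgeR adjusted p = 0.0855). The licensing factors CDC6 and CDT1 rose by 0.29 and 0.24. Of 30 tested mitosis genes 5 fell (median -0.05), and MKI67 was not called (-0.02 ± 0.06). Of 25 tested ribosome biogenesis genes 6 fell (median -0.06), of 26 tested nuclear genes of oxidative phosphorylation 5 fell (median -0.07), and none of these 3 lists had a member that rose. Such small falls depend on single libraries. Without high dose library 2 or 3 or low dose library 1 or 3, 2 mitosis genes fell, without any of these 4 or high dose library 1, 2 or 3 oxidative phosphorylation genes fell, and without low dose library 1, 3 ribosome biogenesis genes fell. None of the 30 tested cytosolic ribosomal protein genes (median 0.01) and none of the 13 mitochondrially encoded genes (median 0.10) passed edgeR's test, 0 of either at an unadjusted p below 0.05 and 0 in DESeq2. With no filter on low counts 1 ribosomal protein gene rose, and 6 mitochondrially encoded genes rose and 1 fell.

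Outside the lists, the rule of the 15 largest rises and 15 largest falls (groups apart, with a mean of 5 CPM or more in the higher one) named further genes. ADM2, a peptide hormone of the calcitonin family and a known ATF4 target, was at 8.88, 10.9 and 11.4 CPM at the high dose against 1.1, 1.92 and 1.54 CPM at the low dose and rose by 2.79 ± 0.17 (adjusted p = 4.26e-18). SLC38A4, an amino acid transporter, rose by 2.13 ± 0.14, AHNAK2, a large scaffold protein, by 2.04 ± 0.13, and NIBAN1, a stress-induced regulator of translation, by 2.03 ± 0.12. SLC7A11-AS1, which runs antisense to the cystine importer, rose by 2.04 ± 0.18. The kit keeps the strand, but whether the counting used it is not stated, so reads of SLC7A11 could be part of this value. IGFL2-AS1, a long noncoding RNA, was at 25.5, 23.9 and 26.9 CPM against 8.1, 6.48 and 7.33 CPM and rose by 1.79 ± 0.12.

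Among the falls, CD200, a membrane glycoprotein that signals to myeloid cells (ENSG00000091972, GRCh38 chromosome 3, 112332347 to 112362812), was at 1.89, 2.26 and 1.69 CPM at the high dose against 6.39, 8.45 and 6.73 CPM at the low dose. Every high dose library is below every low dose library, and CD200 fell by 1.88 ± 0.16 (adjusted p = 1.13e-13). SLC14A1, a urea transporter, was at 1.48, 1.38 and 1.69 CPM against 5.17, 5.11 and 5.47 CPM and fell by 1.78 ± 0.15. NOX1, the NADPH oxidase of the colon that makes superoxide (ENSG00000007952, GRCh38 chromosome X, 100843324 to 100874345), was at 4.98, 5.74 and 5.98 CPM against 14.1, 18.8 and 17.1 CPM at the low dose and fell by 1.58 ± 0.14 (adjusted p = 1.26e-12). Its groups are well apart. LINC00261, a noncoding RNA of endoderm, fell by 1.68 ± 0.12, NEB, the giant muscle protein nebulin, by 1.65 ± 0.15, and PRLR, the prolactin receptor, by 1.29 ± 0.12. FILIP1L, SLC38A11, AKAP7, SPEG and ATP6V1B1, the last a subunit of the vacuolar proton pump, fell by 1.43, 1.34, 1.34, 1.29 and 1.29. NPY6R is annotated as a pseudogene and fell by 1.47 ± 0.12. ZBTB45P1, a processed pseudogene, was at 0, 5.03 and 5.94 CPM against 12.7, 10.4 and 9.94 CPM, with an adjusted p of 0.0378, and its reads may belong to its parent gene. In the high dose library 1 it was at 0, and without that library the log2 difference was -1.0 (edgeR adjusted p = 0.246).

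The dose effect of Glycyrrhiza was then set against that of the other 5 extracts, whose high and low doses also differ 25 times. High against low dose called 28 genes (0.171%) with Palmul-tang, 77 (0.469%) with Sibjeondaebo-tang, 329 (2.01%) with Poria, 660 (4.02%) with Atractylodes and 448 (2.73%) with Ginseng, all at 500 against 20 µg/mL. A test of the difference itself, the Glycyrrhiza dose effect minus the mean dose effect of those 5, called 3606 genes (22% of all tested), 2021 with a higher (12.3%) and 1585 with a lower Glycyrrhiza effect (9.66%). These tests use the 6 Glycyrrhiza libraries too, so their calls are not independent of the rises and falls above. Against Ginseng alone the difference was called for 2153 genes (13.1%), 1315 higher (8.02%) and 838 lower (5.11%). The doses differ between extracts, 350 and 14 µg/mL here and 500 and 20 µg/mL there, so the comparison is of extracts at their own doses. By the dose rule 350 µg/mL is the IC20 of Glycyrrhiza, while 500 µg/mL is the limit for extracts with no IC20 below it. The kind of extract and the closeness of its high dose to the IC20 therefore cannot be told apart here.

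Most ATF4 and endoplasmic reticulum genes had a higher dose effect with Glycyrrhiza than with the other extracts. This held for all 14 ATF4 factors, 15 of 16 amino acid supply genes, 12 of 14 tRNA charging genes and 17 of 18 endoplasmic reticulum genes. Over all tested genes the share was 12.3%. CHAC1 had log2 dose effects of 0.10 with Palmul-tang, -0.43 with Sibjeondaebo-tang, 0.34 with Poria, 0.09 with Atractylodes and 0.02 with Ginseng, none of them called, and its difference was 2.67 ± 0.14 (adjusted p = 4.71e-20). SLC6A9 and ADM2 differed by 3.58 ± 0.25 and 2.87 ± 0.19, with none of the other 5 effects called. DDIT4 differed by 2.01 ± 0.08 (adjusted p = 3.64e-23), and IGFL2-AS1 by 2.22 ± 0.13 (adjusted p = 2.86e-18), where Atractylodes gave a fall of its own (-0.60).

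Several NRF2 genes also rose with other extracts. With Glycyrrhiza the dose effect was higher for 7 of 12 detoxification enzymes, 8 of 14 glutathione genes and 9 of 14 iron and efflux genes, against 12.3% of all tested genes. AKR1B10 rose by 1.26 with Glycyrrhiza, and its effect was 1.13 with Poria, 1.32 with Atractylodes and 1.00 with Ginseng, all called. AKR1C1 rose by 1.61 with Glycyrrhiza, and its effect was 1.05 with Atractylodes, 1.02 with Poria and 0.86 with Ginseng, a difference from the mean of the 5 of 0.91 ± 0.07 (adjusted p = 2.29e-14). SLC7A11 rose with 4 of the other 5 extracts, by at most 0.71 (Atractylodes), and differed by 1.27 ± 0.07. AKR1C3 and CBR1 had differences of 0.14 ± 0.09 and 0.02 ± 0.07, which did not pass the test.

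CYP1A1, the AhR target, rose with other extracts too. Its dose effect was called with Poria (1.14), Atractylodes (1.16) and Ginseng (1.08) and was 0.93 and 0.70, not called, with Palmul-tang and Sibjeondaebo-tang. The Glycyrrhiza effect was higher by 4.25 ± 0.25 (adjusted p = 3.08e-18). CYP1B1 differed by 1.12 ± 0.05. ABCG1 was unlike these, since Atractylodes raised it by 1.97, close to the 2.28 of Glycyrrhiza, while its effect was not called with the remaining 4 (-0.48 with Ginseng, adjusted p = 0.0727).

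Several genes that fell with Glycyrrhiza fell to a smaller degree elsewhere. CD200 fell with Poria (-0.55), Atractylodes (-0.60) and Ginseng (-0.50), and the Glycyrrhiza effect was lower than the mean of the 5 by -1.48 ± 0.17 (adjusted p = 1.55e-09). NOX1 fell with the same 3 extracts, with -0.65 the lowest, and differed by -1.14 ± 0.15 (adjusted p = 8.56e-08). NEB and DLL4 were called with none of the other 5 and differed by -1.47 ± 0.16 and -1.33 ± 0.19. SLC14A1 and LINC00261 differed by -1.29 ± 0.16 and -1.26 ± 0.13, and ZBTB45P1, the uncertain pseudogene, by -1.80 ± 0.64, which was -1.17 without high dose library 1 (edgeR adjusted p = 0.203). Over all tested genes 9.66% had a lower and 12.3% a higher Glycyrrhiza effect. Of the secretory lineage list 8 of 18 had a lower Glycyrrhiza effect and 3 a higher one. In the DNA replication and ribosome biogenesis lists, 23 of 34 and 16 of 25 had a lower Glycyrrhiza effect, more than the 12 and 6 that fell with Glycyrrhiza.

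**Figure D4:**
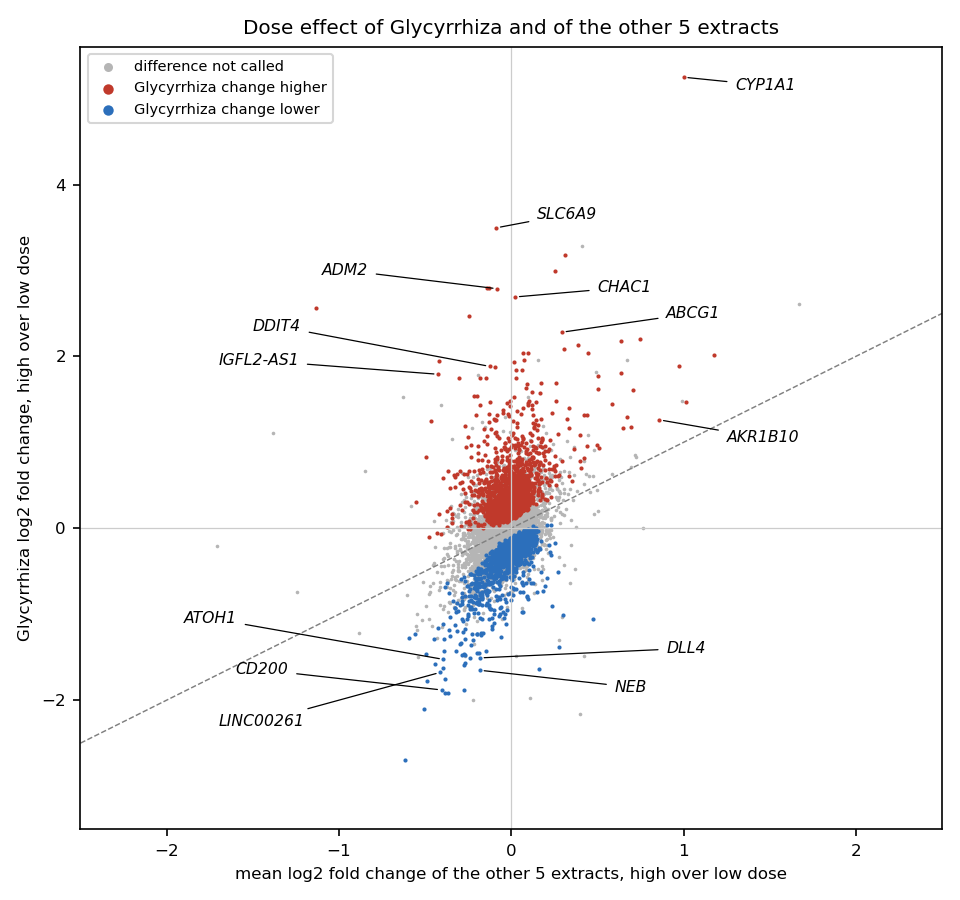
Log2 dose effect of Glycyrrhiza (y axis) against the mean log2 dose effect of the other 5 extracts (x axis), 1 point per gene with at least 1 CPM in the higher Glycyrrhiza group (13476 genes, 2 outside the frame), with the dashed line where both are equal. Points called higher (red) lie above the line with CYP1A1 and SLC6A9 farthest up, and points called lower (blue) lie below it with CD200 and NEB among the farthest.

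**Figure D5:**
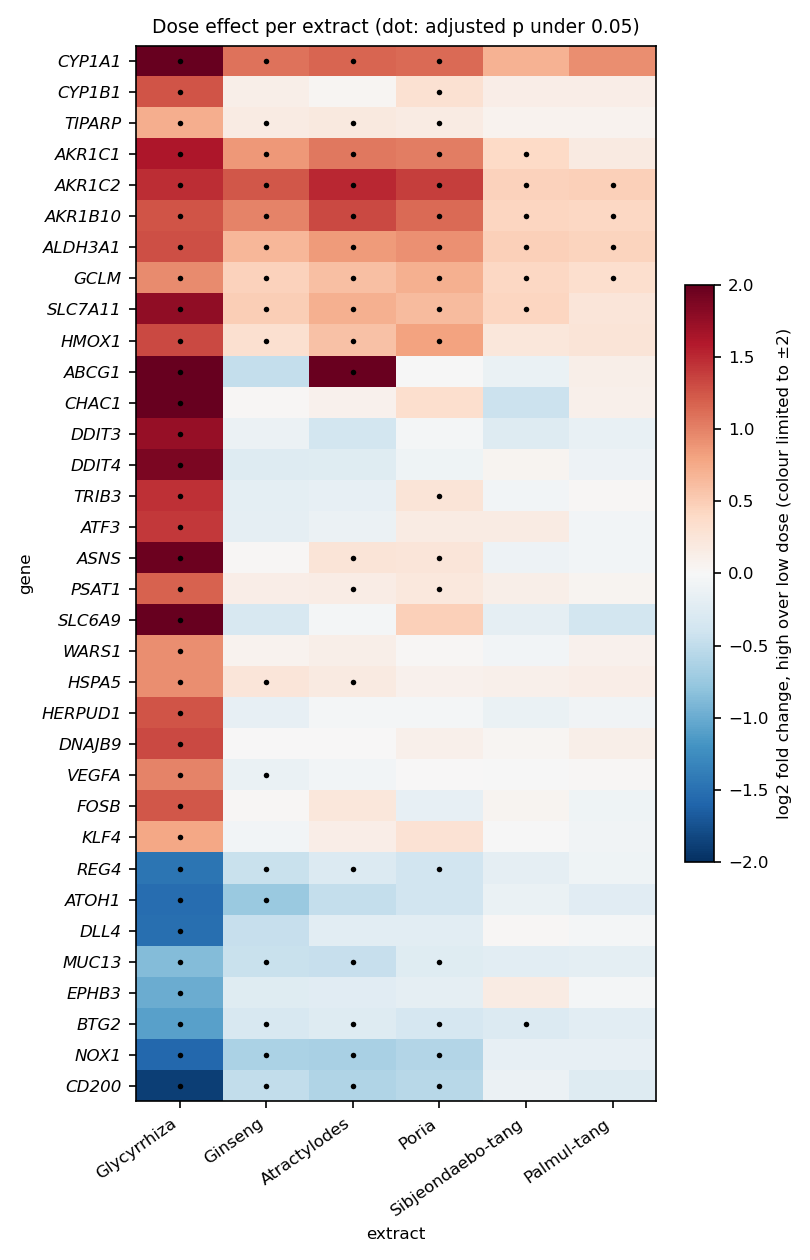
Log2 dose effect, high over low dose, of named genes (rows) with Glycyrrhiza and the other 5 extracts (columns), red for higher and blue for lower, colour limited to ± 2, with a dot where the adjusted p was below 0.05. Glycyrrhiza and Atractylodes are both dark at ABCG1 (2.28 and 1.97), and the ATF4 genes such as CHAC1, DDIT3 and TRIB3 are pale in the other 5 columns.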

How the data were processed

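RNA of HT29 cells was sequenced on an MGI instrument after a directional library kit, per the labels' protocols. FastQC 0.11.9, Trim Galore 0.6.5, STAR 2.7.3a and RSEM 1.3.3 on hg38 are named in the submitters' processing notes, and the annotation release and the strand setting are not given in the sources used here. The authors deposited 1 table of expected counts per gene, which need not be whole, and they were rounded here. Over all gene identifiers, zeros included, 7.7% to 9.78% of the values per library were not whole. Beside the 60 columns of this series, 213 columns belong to samples outside this series and were not used. Columns were matched to samples by the description each sample carries.

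edgeR 4.0.16 in R 4.3.3 fitted 54 libraries (6 extracts at 3 doses, 18 groups of 3, with neither the 3 vehicle nor the 3 Angelica libraries, TMM factors of 0.96 to 1.03, filterByExpr, quasi-likelihood, 36 residual degrees of freedom), and p-values were adjusted over all 16404 genes tested. CPM values are counts per M, scaled by TMM. Fold changes are log2 values from the fit at edgeR's default prior count, and SDs are over the 3 libraries of a group. A prior count of 2 was used only for the log2 levels behind the correlations between libraries. Totals per library were 19.31 to 29.62 M counts, and levels are not compared between genes because CPM carry no length. Symbols and coordinates came from GENCODE release 29 (GRCh38), and promoters from RefSeq (GRCh38.p14).

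Of 666 list entries 664 matched the table and 624 were tested. The comparison, its members and the lists were chosen with earlier results of these data known. The 15 largest rises and 15 largest falls named had an adjusted p below 0.05, a symbol, at least 5 CPM in the higher group and groups that do not overlap. Up to 5 genes per list were taken among its called members, with no minimum CPM and no overlap rule. The 6 highest and 6 lowest differences from the other 5 extracts were taken among genes with a symbol called in both tests. These needed at least 5 CPM in the higher group, with no overlap rule. Further list members are named for their role, chosen after their values were seen. Alternatives were DESeq2 1.42.0, RLE factors, tests without a filter on low counts, the fit with 3 vehicle libraries, the 6 libraries alone, a replicate block, mitochondrial share as a covariate, each library left out in turn, marker sums without TMM, another mitochondrial denominator and a shorter promoter window. On data simulated for high against low dose (16263 genes in the step), edgeR recovered 84% of 100 genes changed by 0.5 on the log2 scale. It recovered 95% of 100 changed by 1, with 12 false calls (6.28% of calls). Only these genes were changed, all drawn from genes with a mean above 1 CPM, while 4143 genes were called in the data. The rates therefore need not hold for this comparison or for genes at lower levels. A few list members count in the list totals and are not reported here by name.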

Additional observations from a re-analysis of the deposited data

Results flagged for a closer look

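Each result here differs between extracts by a test of the difference itself in edgeR. The Glycyrrhiza dose effect differed from that of Ginseng for 2153 genes, and from the mean of the other 5 extracts for 3606. The first 6 genes named had a higher effect with Glycyrrhiza than the mean of the other 5, all on the log2 scale: CYP1A1 by 4.25, SLC6A9 by 3.58, ADM2 by 2.87, CHAC1 by 2.67, IGFL2-AS1 by 2.22 and DDIT4 by 2.01. SLC7A11 (1.27), CYP1B1 (1.12) and AKR1C1 (0.91), named for their role, were higher too. A lower effect was found for ZBTB45P1 (-1.80), CD200 (-1.48), NEB (-1.47), DLL4 (-1.33), SLC14A1 (-1.29), LINC00261 (-1.26) and NOX1 (-1.14). The ZBTB45P1 value rests on 1 library with 0 counts at the high dose, and without it the difference was -1.17 (edgeR adjusted p = 0.203). The groups compared hold 3 libraries each, so no sample was tested for standing apart from its group.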

How the results depend on the processing

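The count of 4143 genes called between high and low dose was 4114 with RLE factors, 3736 with no filter on low counts, 3784 in DESeq2, 4096 with the vehicle libraries in the fit, 3963 in the 6 libraries alone and 4231 with mitochondrial share as a covariate. No gene called by the edgeR fit of 54 libraries turned its direction under any of these. With 1 library left out, counts ran from 3355 to 3637 (1923 to 2080 higher, 1432 to 1606 lower), and 76.4% to 82% of the calls remained. The difference from Ginseng ran from 1827 to 1913 (1123 to 1189 higher, 685 to 724 lower), that from the other 5 extracts from 3041 to 3156 (1712 to 1822 higher, 1268 to 1337 lower), medium against low stayed at 0 in each direction, and the mitochondrial share differed by 0.333 to 0.905 percentage points. That share difference, 0.616, had an exact permutation p of 0.3, two-sided, where 3 against 3 libraries cannot go below 0.1. Medium against low called 129 genes with no filter (66 higher, 63 lower) and 2 in DESeq2 (1 higher, 1 lower), and the cause was not tested. The epithelial marker sum differed by 453 CPM with TMM and by -87.6 CPM without it.

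In windows of 250 bases the antioxidant core was in 12.8% of genes that rose, 10.4% that fell and 12.2% of all. The amino acid core was in 2.35% that rose, 1.33% that fell and 1.41% of all. The xenobiotic core was in 6.05% and the sterol element in 0.877% of all. Why these shares are lower than in the longer windows was not tested. Some values that did not pass the test changed sign, with 1 library left out from -0.438 to 0.192 for ALDH1L2, -0.0761 to 0.0415 for MKI67, -0.0226 to 0.0478 for PRDX1, -0.0341 to 0.0612 for SOX9 (and -0.0105 with the mitochondrial covariate) and -0.0245 to 0.0697 for the CBR1 difference from the other 5 extracts.

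Replicate numbers were not treated as pairs. Deviations of same-numbered high and low dose Glycyrrhiza libraries correlated at -0.01, 0.01 and -0.03, and 1 library correlated best with its own number. With the replicate block 4475 genes were called (2450 higher, 2025 lower), more than the 4143 without it. The block gave 2503 in place of 2153 for the difference from Ginseng and 3987 in place of 3606 for that from the other 5. Medium against low stayed at 0, and 14 cholesterol synthesis genes fell in place of 6. Whether same-numbered libraries share an effect was not tested beyond these values. Totals of 19.77 to 26.3 M counts and 3 libraries per group limit what small changes and low genes can show.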

Other observations

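The 3 vehicle libraries, labelled DMSO, enter no test here outside the alternative fit that included them, and their levels are given as a description. In them CYP1A1 was at 5.07, 0.611 and 0.846 CPM, and the first of the 3 lies several times above the 3 low dose Glycyrrhiza libraries at 0.798, 0.557 and 0.673 CPM. CHAC1 was at 3.32, 2.34 and 2.43 CPM and REG4 at 33.5, 32.9 and 39.5 CPM in the vehicle libraries.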
